A study of Homo sapiens with 4 samples.

Results

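The 10 genes described here encode growth factor receptor tyrosine kinases: EGFR, ERBB2, ERBB3, MET, FGFR1, FGFR4, IGF1R, INSR, AXL and DDR1. They were chosen by name, as the rows that carry one of these 10 gene symbols, and all 10 were present, with 56 annotated transcripts of the 38510 listed in the series and 10 genes of 13036. The RNA came from HCCLM3, a human hepatoma cell line, infected with a lentivirus that carried either a control short hairpin RNA (shCtrl, 2 libraries) or a hairpin against KIAA1429 (shKIAA1429, 2 libraries), so that all 4 libraries came from virus-infected cells. In these libraries the knockdown used a single hairpin sequence in a single cell line. KIAA1429, now named VIRMA, is part of the enzyme complex that places the m6A (N6-methyladenosine) mark. Each library gave the level of a transcript in FPKM, the fragments mapped to it, scaled to its length and to all mapped fragments, and the level of a gene is the sum over its listed transcripts.

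Receptor tyrosine kinases sit in the plasma membrane, bind a ligand outside the cell and, as pairs, phosphorylate tyrosines on their own inner tails. Adaptor proteins that recognise these tyrosines pass the signal on through RAS, RAF, MEK and ERK, through phosphoinositide 3-kinase and through STAT factors, while phosphatases, ubiquitin ligases and endocytosis switch it off. In liver cancer, EGFR, MET, FGFR4, the insulin-like growth factor receptors and AXL are studied for their roles in growth and invasion and as drug targets. ERBB3 binds neuregulins but has little kinase activity of its own and depends on a partner such as ERBB2. INSR, the insulin receptor, and IGF1R, the receptor of insulin-like growth factor 1, also pair with each other, AXL binds GAS6, FGFR1 and FGFR4 bind fibroblast growth factors, MET binds hepatocyte growth factor, and DDR1 binds collagen.

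Several of these genes were listed as transcripts that encode different receptors, and the sequences that tell them apart are shown here because the levels below are given per transcript. They were read from GRCh37 with the GENCODE annotation lifted to that build, 5′ to 3′ on the strand of the gene. Capitals mark the 36, 27 and 54 coding bases present in the first transcript of each pair and spliced out of the second, with the neighbouring bases in lower case. The INSR stretch, which is the alternative exon that separates the B form of the insulin receptor (INSR-201, 1382 amino acids) from the A form (INSR-202, 1370 amino acids), lies on the minus strand of chr19:7143090-7152748 with its flanks across both introns. The AXL stretch lies on the plus strand of chr19:41745208-41748799, in AXL-201 (894 amino acids) and not in AXL-202 (885 amino acids). The MET stretch lies on the plus strand of chr7:116398663-116399456, in MET-201 (1408 amino acids) and not in MET-202 (1390 amino acids).
INSR-201: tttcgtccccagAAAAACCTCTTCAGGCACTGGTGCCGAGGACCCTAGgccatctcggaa
AXL-201: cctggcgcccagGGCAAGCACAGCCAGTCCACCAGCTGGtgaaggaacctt
MET-201: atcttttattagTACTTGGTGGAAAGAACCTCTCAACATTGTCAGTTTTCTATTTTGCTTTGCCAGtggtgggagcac

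EGFR and ERBB3 were each listed with truncated coding transcripts that held much of the gene's level in some libraries, and their ends are shown for that reason. For EGFR the last 60 coding bases are printed, all on the plus strand of chromosome 7. EGFR-201 encodes the full receptor of 1210 amino acids and ends at chr7:55273251-55273310. EGFR-203 (705 amino acids) shares the coding sequence of EGFR-201 up to codon 627 and ends at chr7:55238178-55238237, and EGFR-204 (405 amino acids) shares it up to codon 403 and ends at chr7:55224477-55224536. Both end before the part that encodes the membrane-spanning segment and the kinase. ERBB3-213 (462 amino acids) starts on the plus strand at chr12:56492491-56492554 and joins the frame of the full receptor, ERBB3-201 (1342 amino acids), at codon 898. It lacks all that is encoded before that codon, which takes in the extracellular and membrane-spanning parts and is not limited to them. It covers 33.1% of the full coding sequence. Capitals mark the stop codon in EGFR-201 and, in the other sequences, the bases that are not coding sequence of the full receptor.
EGFR-201: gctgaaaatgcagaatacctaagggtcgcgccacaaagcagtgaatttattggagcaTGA
EGFR-203: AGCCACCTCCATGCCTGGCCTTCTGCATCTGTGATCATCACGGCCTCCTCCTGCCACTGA
EGFR-204: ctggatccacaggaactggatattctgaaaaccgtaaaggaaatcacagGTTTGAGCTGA
ERBB3-213: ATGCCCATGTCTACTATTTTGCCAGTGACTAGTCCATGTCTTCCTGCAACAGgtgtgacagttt

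The libraries were checked before the receptors were compared. The targeted gene, VIRMA, was at 9.37 and 14.1 FPKM in shCtrl replicates 1 and 2, and at 6.90 and 8.52 FPKM in shKIAA1429 replicates 1 and 2. Both shKIAA1429 libraries lay below both shCtrl libraries, and the log2 fold change was -0.53 (limma adjusted p = 0.917), so the test did not separate the knockdown from the spread between replicates. The cell type was checked against 16 hepatoma markers, of which 5 were listed. The keratins KRT8 and KRT18, of the epithelial cytoskeleton, ranged from 1019.1 to 1175.9 FPKM and from 970.7 to 1072.6 FPKM, and the mesenchymal filament VIM from 962.1 to 1227.5 FPKM. SERPINA1, a secreted protease inhibitor of liver cells, was at 4.42 and 3.34 FPKM in the controls and 5.63 and 4.70 FPKM with the hairpin against KIAA1429, and FOXA2, a liver transcription factor, stayed between 0.215 and 0.731 FPKM and was below the filter. The secreted liver proteins ALB, AFP, APOA1, APOB, APOC3, TTR and FGB, the liver transcription factor HNF4A, and the epithelial adhesion genes CDH1 and EPCAM had no row, which means that no transcript of theirs exceeded 0.5 FPKM in the listed data. Of 16 markers of fibroblasts, endothelium and leukocytes, 9 were listed, and their summed level was 164.5 to 172.6 FPKM in shCtrl and 158.4 to 159.3 FPKM in shKIAA1429. The endothelial genes PECAM1, CDH5 and VWF and the leukocyte genes PTPRC and CD3E had no row, while the macrophage genes CD68 and CD14 were at 44.1 to 52.3 FPKM and 2.68 to 4.12 FPKM, the fibroblast gene THY1 at 27.4 to 41.9 FPKM, the collagen gene COL3A1 was at 55.8 to 63.6 FPKM and LUM, a small matrix proteoglycan, at 7.92 and 7.04 FPKM in shCtrl and 2.73 and 2.88 FPKM in shKIAA1429. The part of these markers in the receptor results was not tested. Read depth per library is unknown because the values are normalized.

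The level of the 10 receptors was examined first. AXL was by far the most abundant, at 259.8 and 252.3 FPKM in shCtrl and 320.8 and 273.0 FPKM in shKIAA1429, and it made up 54.0% and 52.5% of the summed receptor level in shCtrl and 61.9% and 58.1% in shKIAA1429. In every library it exceeded the other 9 receptors put together, and it ranked 145th among the 11657 genes tested. EGFR and MET followed at 55.5 and 54.3 FPKM on average over the 4 libraries, then ERBB2 at 27.8, ERBB3 at 20.9, FGFR4 at 14.3, FGFR1 at 13.6, DDR1 at 12.9, IGF1R at 8.69 and INSR at 3.10 FPKM. Along this order, AXL lay above EGFR, MET above ERBB2 and IGF1R above INSR with no overlap over the 4 libraries. For the other 6 neighbours the ranges overlapped. ERBB2 lay above FGFR4 and every receptor after it without overlap. For these gene sums, the order of EGFR and MET and that of ERBB2 and ERBB3 are left unsettled. So is the order from ERBB3 down to IGF1R, in which ERBB3 exceeded FGFR4 within each of the 4 libraries. The place of ERBB2 depends on summing its transcripts. By the highest transcript of each gene alone, the mean of ERBB2 (5.98 FPKM) lay below those of FGFR1 (8.71), ERBB3 (8.47) and FGFR4 (7.70). The summed level of all 10 was 481.2 and 480.4 FPKM in shCtrl and 518.2 and 470.1 FPKM in shKIAA1429, with overlapping groups. Each of the 10 genes was above 1 FPKM in every library, and each was tested.

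**Figure D1:**
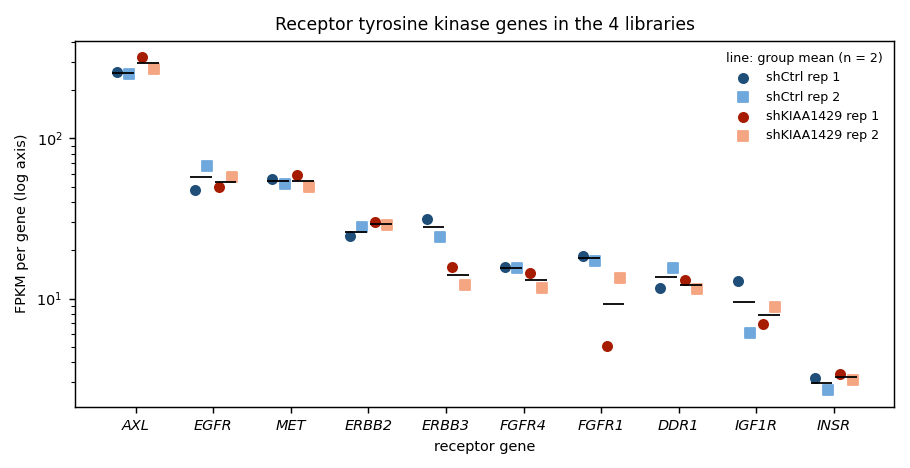
FPKM of each receptor gene (log axis) in the 2 shCtrl and 2 shKIAA1429 libraries, ordered by mean level, with a line at each group mean. AXL stands above all other receptors in each library, ERBB3 has both shKIAA1429 points below both shCtrl points, and FGFR1 has 1 shKIAA1429 library at 5.07 FPKM against 13.4 FPKM in the other.

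To learn whether the receptors changed with the knockdown, gene levels were compared with limma on log2(FPKM + 1), and a gene was called at an adjusted p under 0.05 with an absolute log2 fold change over 1. None of the 10 receptors was called, and 0.0% of all 11657 genes tested were called (0 genes). The study reported differentially expressed genes at these thresholds from DESeq on reads per gene, a test that was not repeated here. At an unadjusted limma p under 0.05, 1 receptor (ERBB3) was lower and 0 were higher, where 2.65% of all genes tested were lower and 2.98% higher, together 5.63%. One receptor (FGFR1) had an absolute log2 fold change over 1, against 1.07% of all genes tested. In 3 receptors both shKIAA1429 libraries lay below both shCtrl libraries (ERBB3, FGFR1 and FGFR4), against 16.7% of all genes tested, and in 2 receptors they lay above (AXL and ERBB2), against 16.9%. The median log2 fold change of the 10 was -0.10, beside -0.01 for all genes tested. With 2 libraries against 2, the two-sided exact permutation test of a single gene cannot give a p below 0.333. Nothing in the labels says that replicates came from separate cultures, so these p-values measure the spread between libraries, which may be technical.

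**Figure D2:**
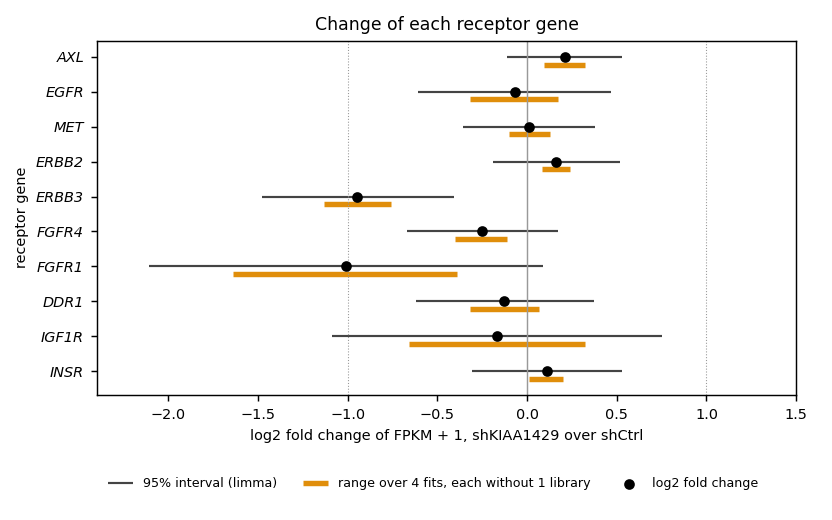
Log2 fold change of each receptor gene (shKIAA1429 over shCtrl, FPKM + 1) with its 95% limma interval, and below it the range over 4 fits that each leave out 1 library. The interval of ERBB3 lies below 0, from -1.48 to -0.41, those of the other 9 receptors include 0, and the range of FGFR1 runs from -1.64 to -0.39.

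ERBB3, the neuregulin receptor, showed the lowest unadjusted p of the 10. Its level was 31.6 and 24.2 FPKM in shCtrl and 15.7 and 12.2 FPKM in shKIAA1429. Both shKIAA1429 libraries lay below both shCtrl libraries, and the means, 27.9 ± 5.21 (SD, n = 2) and 14.0 ± 2.48 FPKM (SD, n = 2), stood at a ratio of 0.501. The log2 fold change was -0.95 (SE 0.21, limma adjusted p = 0.568), and it ranged from -1.13 to -0.76 when 1 library was left out. The difference did not pass the test over all genes. In bulk RNA, fewer cells that express a gene and less RNA per cell cannot be told apart.

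All 5 listed ERBB3 transcripts were lower in both shKIAA1429 libraries than in either shCtrl library. Of the 5, 3 passed the filter and were tested (ERBB3-212 and ERBB3-221 did not pass). These 3 stand beside 16.8% of all transcripts tested that were lower without overlap. Transcripts of 1 gene share sequence, so they are not independent of each other. The largest log2 fold change in size among the 3 was that of ERBB3-213, the short form whose start is printed above, which covers 33.1% of the coding sequence of the full receptor. Its level was 13.7 and 10.8 FPKM in shCtrl and 4.66 and 4.77 FPKM in shKIAA1429, for a log2 fold change of -1.20 (SE 0.20, limma adjusted p = 0.310 over 24996 transcripts). The full-length ERBB3-201 was at 9.27 and 8.17 FPKM in shCtrl and 7.91 and 3.91 FPKM in shKIAA1429, so that shKIAA1429 replicate 1 was close to the controls. ERBB3-202, which carries only the first 10.5% of the coding sequence, was at 4.14 and 3.55 FPKM in shCtrl and 2.72 and 2.97 FPKM in shKIAA1429. Between shCtrl replicate 1 and shKIAA1429 replicate 1, most of the gap in the gene sum lay in the short form and in ERBB3-212. The GENCODE annotation types ERBB3-212 as a retained intron, while the deposited data label it protein coding. It was at 4.19 FPKM in shCtrl replicate 1, 0.965 in shCtrl replicate 2, and 0.274 and 0.410 in shKIAA1429. ERBB3-221, labelled in the same 2 ways, stayed under 1 FPKM in all 4 libraries. The alternative fit on coding transcripts only follows the deposited label and so kept both.

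ERBB2, the partner of ERBB3 that has no ligand of its own, was at 24.7 and 27.8 FPKM in shCtrl and 30.1 and 28.8 FPKM in shKIAA1429. Both shKIAA1429 libraries were higher, by a log2 fold change of 0.16 (SE 0.14, 95% interval -0.19 to 0.52, limma adjusted p = 0.973). ERBB2 overlaps the genes PGAP3 and MIEN1 on the opposite strand, and whether reads were counted by strand is not stated. EGFR, the receptor of epidermal growth factor, was at 47.4 and 67.1 FPKM in shCtrl and 49.7 and 57.7 FPKM in shKIAA1429. The shKIAA1429 libraries fell between the controls, and the log2 fold change was -0.07 (SE 0.21, interval -0.61 to 0.47, limma adjusted p = 0.999). ERBB4, the remaining member of this family, had no row.

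FGFR1 had the largest log2 fold change in size among the 10 genes, but the knockdown libraries differed from each other. Its level was 18.5 and 17.2 FPKM in shCtrl against 5.07 and 13.4 FPKM in shKIAA1429, so that replicate 1 stood far below the controls and replicate 2 only a little below. The log2 fold change was -1.01 (SE 0.42, limma adjusted p = 0.899), and it was -0.39 without shKIAA1429 replicate 1 and -1.64 without shKIAA1429 replicate 2. The gap came from 1 transcript, FGFR1-207, at 13.5 and 12.4 FPKM in shCtrl, listed at 0 in shKIAA1429 replicate 1 and at 8.91 FPKM in replicate 2. FGFR1-238, which carries the longest coding sequence listed for the gene (820 codons), was at 3.70 and 3.45 FPKM in shCtrl and 2.98 and 3.24 FPKM in shKIAA1429. FGFR1-207 (733 codons) lacks a stretch near its start and has 157 coding bases that FGFR1-238 lacks, in the part that encodes the immunoglobulin-like loop next to the membrane, where alternative exons of this gene family set which ligands bind. Without FGFR1-207 the remaining transcripts differed little between libraries, while FGFR1-201 was at 0.416, 0.417 and 0.460 FPKM in 3 libraries and at 1.16 FPKM in shKIAA1429 replicate 1, the library in which FGFR1-207 was listed at 0. FGFR1 overlaps LETM2 on the opposite strand and the pseudogene RPS20P22 on its own strand, and whether reads were counted by strand is not stated.

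FGFR4, the main fibroblast growth factor receptor of liver cells, was at 15.7 and 15.5 FPKM in shCtrl and 14.4 and 11.6 FPKM in shKIAA1429. Both knockdown libraries were lower, by a log2 fold change of -0.25 (SE 0.16, interval -0.67 to 0.17, limma adjusted p = 0.954). Its transcripts exchanged places in 1 library. FGFR4-207 was at 8.40, 10.8 and 7.66 FPKM in the first 3 libraries and 3.92 in shKIAA1429 replicate 2, and FGFR4-203 at 2.69, 2.37 and 2.50 FPKM and then 0.153, whereas FGFR4-201 was at 2.18, 1.66 and 1.29 FPKM and then 6.33. FGFR4-201 and FGFR4-207 carry the same coding sequence of 802 codons, so an exchange between them leaves the encoded receptor as it was. Neither FGFR2 nor FGFR3 had a row.

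AXL, the receptor of GAS6, was higher in both shKIAA1429 libraries than in either control, with means of 256.0 ± 5.37 FPKM (SD, n = 2) for the control hairpin and 296.9 ± 33.8 FPKM (SD, n = 2) with the hairpin. The log2 fold change was 0.21 (SE 0.12, interval -0.11 to 0.53, limma adjusted p = 0.954). Its 2 main coding transcripts put the 4 libraries in the same order. AXL-201 was at 224.4 and 220.6 FPKM in shCtrl and 279.1 and 231.4 FPKM in shKIAA1429, and AXL-202, which lacks the 27 bases printed above, at 30.9 and 29.4 FPKM and at 39.0 and 35.6 FPKM. AXL-201 held 86.4% and 87.4% of the gene's level in shCtrl and 87.0% and 84.8% in shKIAA1429. AXL-203 and AXL-204 stayed between 0.890 and 5.09 FPKM.

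MET, the receptor of hepatocyte growth factor, was at 55.8 and 52.1 FPKM in shCtrl and 59.1 and 50.1 FPKM in shKIAA1429. The shKIAA1429 libraries lay on either side of the controls, and the log2 fold change was 0.01 (SE 0.14, interval -0.36 to 0.38, limma adjusted p = 0.999). MET-202, without the 54 bases printed above, was the most abundant transcript in every library, at 32.4 and 27.9 FPKM in shCtrl and 28.7 and 28.7 FPKM in shKIAA1429. MET-201, which holds those bases, was at 4.70 and 2.72 FPKM in shCtrl and 5.23 and 2.67 FPKM in shKIAA1429.

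INSR was the lowest of the 10, at 3.21 and 2.69 FPKM in shCtrl and 3.39 and 3.11 FPKM in shKIAA1429, with overlapping groups and a log2 fold change of 0.11 (SE 0.16, limma adjusted p = 0.987). Most of it was the A form, which binds insulin-like growth factor 2 as well as insulin. INSR-202 (the A form) was at 2.52 and 2.11 FPKM in shCtrl and 2.41 and 2.06 FPKM in shKIAA1429, and made up 78.5% and 78.5% of the gene's level in shCtrl and 71.2% and 66.2% in shKIAA1429. INSR-201 (the B form, with the 36-base exon) was at 0.690 and 0.577 FPKM in shCtrl and 0.977 and 1.05 FPKM in shKIAA1429, higher in both knockdown libraries, but too low to pass the filter of 1 FPKM in 2 libraries, so it was not tested.

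IGF1R was at 12.9 and 6.08 FPKM in shCtrl and 6.94 and 8.80 FPKM in shKIAA1429, and the controls differed from each other by more than the knockdown libraries did. The log2 fold change was -0.17 (SE 0.36, interval -1.09 to 0.75, limma adjusted p = 0.999) and became 0.32 without shCtrl replicate 1. The gap between the controls lay in IGF1R-204, a short transcript that was at 8.42 and 1.87 FPKM in shCtrl and 2.56 and 5.05 FPKM in shKIAA1429. The longer IGF1R-201 was at 2.20 and 2.68 FPKM in shCtrl and 2.49 and 0.330 FPKM in shKIAA1429, and IGF1R-206 at 2.30 and 1.52 FPKM and at 1.90 and 3.43 FPKM. DDR1, the collagen receptor, was at 11.6 and 15.5 FPKM in shCtrl and 13.1 and 11.4 FPKM in shKIAA1429, for a log2 fold change of -0.13 (SE 0.19, limma adjusted p = 0.987). Its highest control value came with DDR1-232, which was at 9.09 FPKM in shCtrl replicate 2 and between 0.613 and 0.669 FPKM in the other 3 libraries. The 9 other DDR1 transcripts stayed at or under 2.45 FPKM.

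Across the 56 receptor transcripts, 38 passed the filter and none was called, and 0.0% of all 24996 transcripts tested were called (0 transcripts). An unadjusted limma p under 0.05 was reached by 1 of the 38 (ERBB3-213), against 6.28% of all transcripts tested. Without shKIAA1429 replicate 1 it was reached by 7 of the 38, of which 6 were lower (ERBB3-201 and ERBB3-213, FGFR4-201, FGFR4-203 and FGFR4-207, IGF1R-201 and MET-203 in all), against 6.99% of all transcripts, and by 1 or 2 without any other library. The shKIAA1429 libraries lay below the controls without overlap in 6 of the 38, against 16.8% of all transcripts tested, and above them in 3, against 16.7%.

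Several receptor transcripts differed more between libraries of the same group than between groups. EGFR-201, the full receptor, was at 40.9 FPKM in shCtrl replicate 1 and 23.7 in replicate 2, and at 44.3 and 34.4 FPKM in the shKIAA1429 libraries. The truncated forms made up much of the rest. EGFR-204 was at 2.57, 17.9, 3.01 and 8.22 FPKM in shCtrl replicates 1 and 2 and shKIAA1429 replicates 1 and 2, and EGFR-203 at 0.292, 4.82, 0.131 and 11.0 FPKM in the same order. EGFR-207, of 1091 amino acids, was at 18.6 FPKM in shCtrl replicate 2 and at or under 0.358 FPKM elsewhere. As a result EGFR-201 made up 86.2% and 35.2% of the EGFR level in the shCtrl libraries and 89.1% and 59.6% in the shKIAA1429 libraries.

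ERBB2 and MET held transcripts of the same behaviour. ERBB2-219 was at 0.509, 8.82, 0.207 and 5.44 FPKM in that order and ERBB2-218 at 2.98, 7.28, 3.01 and 7.24 FPKM. ERBB2-201, which carries the longest coding sequence (1255 codons), ran the other way, at 6.74, 1.47, 10.8 and 1.75 FPKM. ERBB2-219 carries 97.6% of that coding sequence, so most of it is common to both, but ERBB2-219 lacks the first 30 codons. ERBB2-210, a short fragment, had the highest mean of the ERBB2 transcripts (5.98 FPKM), at 4.63, 5.82, 5.13 and 8.33 FPKM. ERBB2-202, at 1.92, 1.61, 2.78 and 2.01 FPKM, was higher in shKIAA1429 without overlap, as were 16.7% of all transcripts tested. MET-204 was listed at 0 in both replicates 1 and was at 8.11 and 12.8 FPKM in shCtrl and shKIAA1429 replicate 2. MET-203 was at 11.9, 9.95 and 16.9 FPKM and then 1.59 in shKIAA1429 replicate 2. FGFR4-213, a short fragment, was at 2.02, 0.186, 2.42 and 0.307 FPKM. EGFR-203, EGFR-204, ERBB2-218, ERBB2-219 and MET-204 were higher in replicate 2 than in replicate 1 of both groups. EGFR-201, ERBB2-201, MET-203 and FGFR4-213 were lower in replicate 2 of both groups. EGFR-207, IGF1R-204 and FGFR4-201 ran in opposite directions in shCtrl and shKIAA1429. Over all transcripts tested, deviations of same-numbered libraries correlated at 0.0642, and whether replicate numbers mark a batch was not tested. The gene sums of EGFR, ERBB2 and MET varied much less, as between 24.7 and 30.1 FPKM for ERBB2. Transcripts of 1 gene overlap over most of their length, and the tool that split the fragments among them is not stated.

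**Figure D3:**
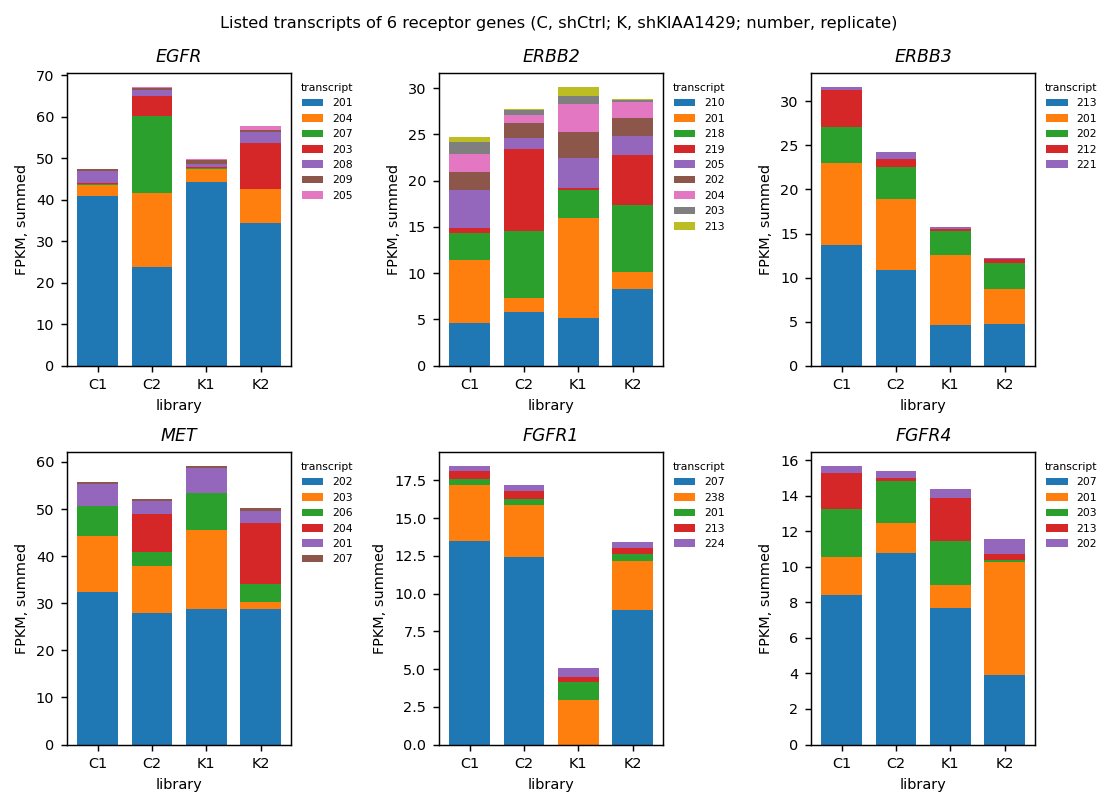
Stacked FPKM of the listed transcripts of 6 receptor genes in each library (C1 and C2, shCtrl replicates; K1 and K2, shKIAA1429 replicates), with 1 colour per transcript within a gene. The mixtures of EGFR and ERBB2 differ between libraries of the same group, ERBB3 is lower in both K libraries, and the FGFR1-207 block (13.5, 12.4 and 8.91 FPKM) is missing from K1.

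**Figure D4:**
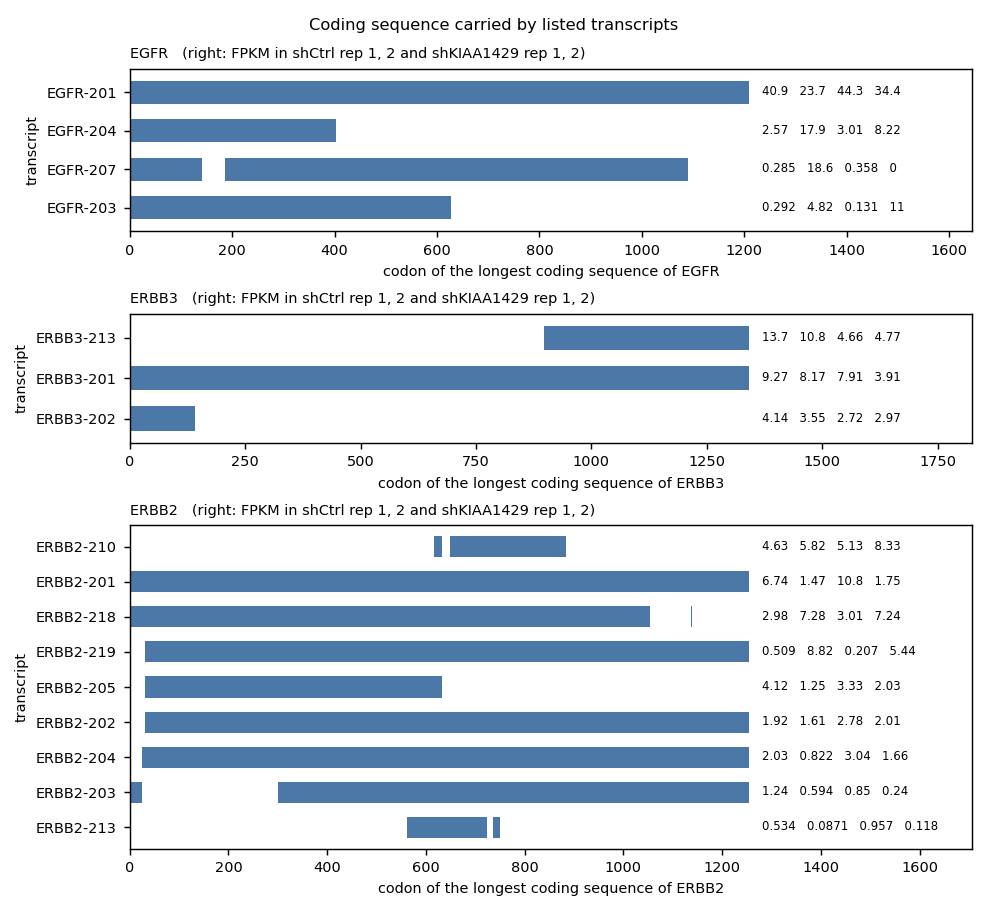
Coding sequence of the listed EGFR, ERBB3 and ERBB2 transcripts, drawn along the codons of the longest coding sequence of each gene, with the FPKM in the 4 libraries at the right. EGFR-203 and EGFR-204 stop at codons 627 and 403 of 1210, and ERBB3-213 starts at codon 898 of 1342. Transcripts whose annotated ends differ from the files by over 5000 bases, and those with no coding sequence, are not drawn.

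The ligands of these receptors were examined next, from a list of 31 genes of which 15 were listed and 13 tested. None was called, 2 were lower and 1 was higher at an unadjusted limma p under 0.05 (of all genes tested, 2.65% were lower and 2.98% higher), and the median log2 fold change was -0.20 beside -0.01 for all genes. The lower pair were EREG (epiregulin) and HBEGF (heparin-binding EGF-like growth factor), both ligands of EGFR. EREG was at 13.8 and 8.10 FPKM in shCtrl and 4.97 and 5.41 FPKM in shKIAA1429 (log2 fold change -0.91, limma adjusted p = 0.774). HBEGF was at 11.6 and 9.14 FPKM in shCtrl and 5.99 and 6.30 FPKM in shKIAA1429 (log2 fold change -0.66, limma adjusted p = 0.720). The groups did not overlap in either gene, and 16.7% of all genes tested were lower without overlap.

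EPGN (epigen), also an EGFR ligand, was at 9.09 and 4.21 FPKM in shCtrl and 4.20 and 3.04 FPKM in shKIAA1429, so that the nearest libraries of the 2 groups were almost equal. NRG1, which encodes neuregulin 1, the ligand of ERBB3, was abundant, at 104.9 and 93.3 FPKM in shCtrl and 74.4 and 91.0 FPKM in shKIAA1429 (log2 fold change -0.26, limma adjusted p = 0.954). GAS6, the ligand of AXL, was abundant as well, at 81.0 and 71.0 FPKM in shCtrl and 88.4 and 70.8 FPKM in shKIAA1429. AXL and GAS6 were thus both well expressed in the same libraries, and bulk RNA does not show whether the same cells expressed both. PROS1, a related ligand that acts mainly on the AXL relatives TYRO3 and MERTK, was at 4.31 to 6.62 FPKM over the 4 libraries.

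The fibroblast growth factors FGF2 and FGF1 were at 27.8 to 51.9 FPKM and 3.45 to 5.59 FPKM over the 4 libraries, with log2 fold changes of -0.34 and -0.30 (limma adjusted p = 0.971 and 0.960). Without shCtrl replicate 1 these were -0.0376 and -0.0751, and without shCtrl replicate 2 they were -0.65 and -0.53. IGF2, insulin-like growth factor 2, was the 1 ligand higher at an unadjusted p under 0.05, but at a low level, 0.268 and 0.207 FPKM in shCtrl and 1.17 and 1.97 FPKM in shKIAA1429 (log2 fold change 1.04, limma adjusted p = 0.538). Among the collagens that DDR1 binds, COL4A2 was at 50.2 and 53.5 FPKM in shCtrl and 58.7 and 59.0 FPKM in shKIAA1429. COL4A1 was at 16.2 and 16.9 FPKM and at 19.4 and 19.6 FPKM. Both were higher without overlap, as were 16.9% of all genes tested (log2 fold changes 0.18 and 0.23, limma adjusted p = 0.960 and 0.949). COL3A1 had a log2 fold change of 0.10 and COL1A1 of 0.38 (limma adjusted p = 0.987 and 0.954). EGF, BTC, HGF, IGF1, INS, NRG2, NRG3, NRG4 and FGF19 had no row, and AREG and TGFA were listed but below the filter. FGF19, the hormone-like ligand of FGFR4, and its co-receptor KLB were therefore both without a row in cells that expressed FGFR4, as was HGF, the ligand of MET.

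Among 21 co-receptors, ligand-processing enzymes and binding proteins, 14 were tested, 1 was lower and 3 were higher at an unadjusted limma p under 0.05 (of all genes, 2.65% and 2.98%), and none was called. Of the insulin-like growth factor binding proteins, which hold these factors outside the cell, IGFBP1 was lower and IGFBP2 and IGFBP4 were higher without overlap. Of all genes tested, 16.7% were lower and 16.9% higher without overlap. None of the binding proteins was called. IGFBP1 was at 20.6 and 28.9 FPKM in shCtrl and 11.7 and 10.3 FPKM in shKIAA1429 (log2 fold change -1.09, limma adjusted p = 0.484). IGFBP2 was at 4.57 and 4.41 FPKM in shCtrl and 11.9 and 9.70 FPKM in shKIAA1429 (log2 fold change 1.10, limma adjusted p = 0.367). IGFBP3 was the most abundant binding protein, at 172.7 to 229.9 FPKM, with overlapping groups. IGFBP4 had a log2 fold change of 0.20 (limma adjusted p = 0.943) and IGFBP6 of 0.05, with overlapping groups in IGFBP6.

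SDC1, the heparan sulphate proteoglycan syndecan 1, which holds growth factors at the cell surface, was at 30.0 and 36.1 FPKM in shCtrl and 46.6 and 49.3 FPKM in shKIAA1429 (log2 fold change 0.53, limma adjusted p = 0.753). CD44, a co-receptor of MET, named after its values were seen, was at 159.5 and 177.0 FPKM in shCtrl and 203.5 and 214.0 FPKM in shKIAA1429 (log2 fold change 0.31, limma adjusted p = 0.884). FGFRL1, a fibroblast growth factor receptor relative without a kinase, was at 5.89 and 9.06 FPKM in shCtrl and 7.69 and 4.86 FPKM in shKIAA1429, with overlapping groups.

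Of 30 adaptors and docking proteins, 24 were tested, none was called, and 3 were higher and 0 lower at an unadjusted limma p under 0.05 (of all genes, 2.98% and 2.65%), with a median log2 fold change of 0.09. The 3 were NCK2, GRB10 and FRS3, the last named after its values were seen. GRB10, which binds the insulin and insulin-like growth factor receptors and dampens them, was at 9.82 and 6.65 FPKM in shCtrl and 17.3 and 14.4 FPKM in shKIAA1429 (log2 fold change 0.88, limma adjusted p = 0.688). NCK2, an adaptor that links receptors to actin, was at 2.15 and 1.09 FPKM in shCtrl and 3.89 and 5.44 FPKM in shKIAA1429 (log2 fold change 1.13, limma adjusted p = 0.644). FRS3, a docking protein of fibroblast growth factor receptors, had a log2 fold change of 0.69 (limma adjusted p = 0.798). GRB7, an adaptor of ERBB2, and GAB2 had log2 fold changes of -0.63 and -0.35 (limma adjusted p = 0.939 and 0.954). These depended on shKIAA1429 replicates, since GRB7 was at -0.18 without replicate 1 and -1.09 without replicate 2, and GAB2 at -0.61 and -0.0935. SHC1, the most abundant adaptor, was at 116.0 to 140.0 FPKM with overlapping groups.

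In the RAS to ERK cascade, 20 of 22 genes were tested, none was called, and 2 were lower and 0 higher at an unadjusted limma p under 0.05 (of all genes, 2.65% and 2.98%), with a median log2 fold change of -0.02. They were the scaffold KSR1, at 9.22 and 9.84 FPKM in shCtrl and 6.29 and 7.45 FPKM in shKIAA1429, and the GTPase NRAS, at 18.7 and 17.9 FPKM and at 14.1 and 14.1 FPKM (log2 fold changes -0.42 and -0.36, limma adjusted p = 0.884 for both). YWHAB, a 14-3-3 protein that binds RAF, had the largest positive value, 0.73 (limma adjusted p = 0.969), which came from shCtrl replicate 1 at 27.8 FPKM against 73.8 to 89.4 FPKM in the other libraries. MRAS had a log2 fold change of 0.29 (limma adjusted p = 0.979).

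Of 33 inhibitors and feedback genes, 31 were tested, none was called, and 2 were lower and 2 higher at an unadjusted limma p under 0.05 (of all genes, 2.65% and 2.98%), with a median log2 fold change of 0.05. PTPN1, the phosphatase that acts on the insulin receptor and other receptors, was at 48.7 and 49.6 FPKM in shCtrl and 33.5 and 36.5 FPKM in shKIAA1429 (log2 fold change -0.48, limma adjusted p = 0.730). DUSP5, a nuclear ERK phosphatase, had means of 15.7 ± 4.37 FPKM (SD, n = 2) and 9.57 ± 0.633 FPKM (SD, n = 2) with the control and the KIAA1429 hairpin, without overlap (log2 fold change -0.64, limma adjusted p = 0.877). LRIG1, which promotes the breakdown of EGFR family receptors, was at 1.47 and 1.32 FPKM in shCtrl and 2.24 and 2.58 FPKM in shKIAA1429, and RASA1, a RAS GTPase-activating protein, at 7.67 and 6.27 FPKM and at 13.5 and 10.2 FPKM (log2 fold changes 0.51 and 0.68, limma adjusted p = 0.819 and 0.774).

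Of the 23 genes of receptor endocytosis and sorting, all were tested and none was called, with a median log2 fold change of -0.01. None reached an unadjusted limma p under 0.05, against 5.63% of all genes tested. USP8, an endosomal deubiquitinase of receptors, had a log2 fold change of -0.47, CLTA (clathrin light chain A) of -0.34, SH3KBP1, an adaptor of the ubiquitin ligase CBL, of 0.38 and CHMP3 of 0.21 (limma adjusted p = 0.886, 0.987, 0.924 and 0.987). With the highest transcript alone, USP8 was at -2.0 (limma adjusted p = 0.163). Of 48 other receptor tyrosine kinases, 20 were listed and 16 tested. EPHA2, an ephrin receptor, was the highest of them, at 95.1 and 96.8 FPKM in shCtrl and 100.3 and 99.1 FPKM in shKIAA1429, above every one of the 10 receptors except AXL. PTK7, a receptor without kinase activity, was listed at 0 and at 0.497 FPKM in shCtrl and was at 2.54 and 2.40 FPKM in shKIAA1429 (limma adjusted p = 0.417). Both shCtrl values lay below the filter value of 1 FPKM. PTK7 was the 1 gene of this list at an unadjusted limma p under 0.05 (of all genes tested, 2.65% were lower and 2.98% higher). MERTK, a relative of AXL, was at 1.02 and 2.44 FPKM in shCtrl and 0.559 and 0.577 FPKM in shKIAA1429, and KIT had a log2 fold change of -0.54 (limma adjusted p = 0.884 and 0.888). EPHB4 was at 11.4 and 3.86 FPKM in shCtrl and 15.3 and 4.26 FPKM in shKIAA1429, with overlapping groups. The kinases PDGFRA, KDR, FLT1, RET, ALK and MST1R had no row.

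**Figure D5:**
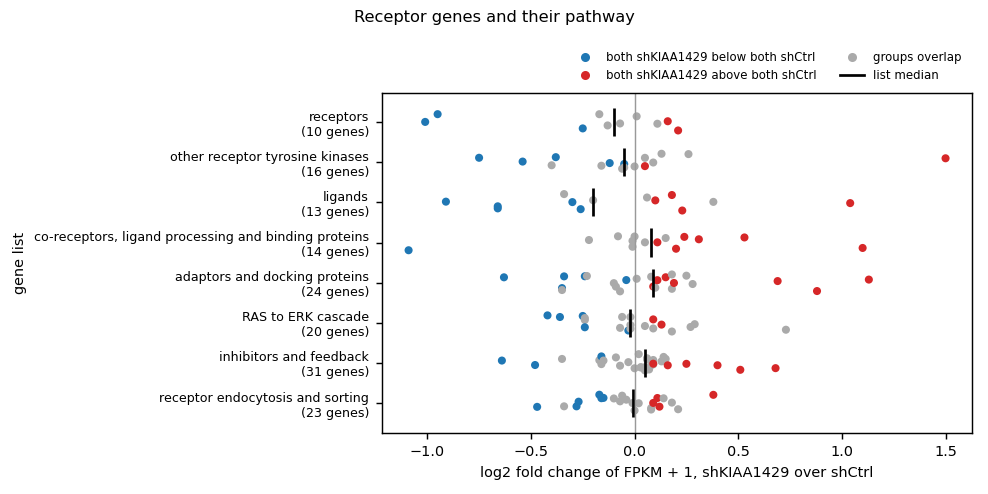
Log2 fold change of each tested gene (shKIAA1429 over shCtrl, FPKM + 1) in the 10 receptors and 7 lists of related genes, with a bar at each list median. Blue and red points are genes whose groups do not overlap, grey points are genes whose groups overlap, and the medians lie between -0.20 (ligands) and 0.09 (adaptors and docking proteins).

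Because KIAA1429 acts in m6A writing, the receptor transcripts were also read for GGAC, a core of the sequence that this methylation favours, on the strand of the transcript only. In the transcript of each gene with the highest mean over the 4 libraries, the number per kilobase was lowest in ERBB3 (1.52, from 5 matches in the 3289 bases of ERBB3-213) and highest in IGF1R (8.74) and DDR1 (8.64). Among 11324 tested genes with a sequence, these stand at the 7.56th, 95.8th and 95.5th percentile, and the median is 3.75 per kilobase. EGFR (3.74), MET (3.81) and INSR (4.02) lay near that median, and FGFR1 (6.10), AXL (6.78) and FGFR4 (7.58) above it. The values of IGF1R and of ERBB2 (5.31) come from short transcripts of 572 and 754 bases, and that of DDR1 from DDR1-232, whose mean rests on shCtrl replicate 2. In shKIAA1429 replicate 1, FGFR1-207 was listed at 0 and ERBB3-201 (7.91 FPKM) lay above ERBB3-213 (4.66 FPKM). A match is a description of the sequence and not a methylated site.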

How the data were processed

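RNA-seq libraries of infected HCCLM3 cells (4 samples, 2 per group, grouped by title) were used. The authors deposited FPKM values per transcript, as the file headers state, and the labels name the hg19 build and Bowtie2 2.1.0. The study's methods name TopHat for alignment and HTSeq for reads per gene, which is not the FPKM per transcript deposited. The tool that made the FPKM, strand and multi-mapping rules are not given in the sources used here. Listed transcripts exceeded 0.5 FPKM in at least 1 library (lowest maximum 0.504). Whole reads could not be recovered (16.8% to 20.2% whole within 0.05 of a read at the best step, against 10% by chance), so depth is unknown and no counting interval is given.

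FPKM were summed per gene. Genes and transcripts with at least 1 FPKM in at least 2 samples were tested on log2(FPKM + 1) with limma 3.58.1 in R 4.3.3 (eBayes with trend, two-sided, group only). p-values were adjusted by Benjamini-Hochberg over all 11657 genes or 24996 transcripts. A gene was called at an adjusted p below 0.05 with a log2 fold change beyond 1 in size, the thresholds of the study. On this scale, changes of low genes are understated. In simulated data for 11657 genes, the test recovered 61 of 100 genes changed by 1.5 on the log2 scale. It recovered 93 of 100 changed by 3, with 10 false calls. The simulated noise followed the variance model of the test itself and was independent between libraries. These counts therefore do not show what the test would find in the real libraries. Of the receptor transcripts 54 of 56 matched the GENCODE 44 annotation lifted to GRCh37, and the structure of 51, whose ends lay within 5000 bases of the files, was used, a limit set after the data were seen. Symbols of 18 genes turned into dates were repaired. Positions are as in the files.

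The members and the gene lists were chosen with earlier results of these data known. All 10 receptors and their transcripts were named. From each other list, up to 2 genes with the largest positive and 2 with the largest negative fold change were named, with the tested ligands, and list genes could be named for their level or absence. Alternatives were another scaling, other filters and pseudocount, a robust variance, the replicate block, coding or highest transcripts only, single thresholds and leaving out each library, the last added for counts of calls after the data were seen. Count tests were not run because the files hold FPKM. Python 3.11.15 with matplotlib 3.10.9 was used for the figures.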

Additional observations from a re-analysis of the deposited data

How the results depend on the processing

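No receptor gene was called by limma with no filter on low values, upper quartile scaling, at least 1 FPKM in every sample, a pseudocount of 0.1, a robust variance, coding transcripts only, the highest transcript only, an adjusted p alone, or any fit without 1 library. No receptor transcript was called in the same fits except coding transcripts only, the highest transcript only and an adjusted p alone, which were not run for transcripts. At an unadjusted limma p under 0.05, each alternative gene fit on all 4 libraries gave 1 receptor. The same fits gave from 570 (at least 1 FPKM in every sample) to 1269 (replicate block) of all genes. Each alternative transcript fit on all 4 libraries gave 1 receptor transcript, or 2 with no filter. Of all transcripts these fits gave from 858 (at least 1 FPKM in every sample) to 2243 (no filter). By an absolute log2 fold change over 1 alone, with no test, 125 genes and 1 receptor (FGFR1) passed. Without shCtrl replicate 1, 1 gene was called (HIST4H4, log2 fold change 5.78, limma adjusted p = 0.0362), and between 0 and 1 gene over the 4 fits. ERBB3 kept its direction in each fit, with adjusted p from 0.303 to 0.934. FGFR1, FGFR4, AXL and ERBB2 also kept theirs.

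The groups share replicate numbers, but the labels do not say that a number marks a shared culture or day, and 2 pairs are too few to show it. Deviations of same-numbered libraries correlated at 0.324 over genes and 0.0642 over transcripts. With the replicate block, 0 genes were called and 1269 had an unadjusted limma p under 0.05, against 656 without it, and 0 receptors were called, with ERBB3 at a log2 fold change of -0.95 (adjusted p = 0.303).

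With the highest transcript alone, the log2 fold change was 0.32 for EGFR, -0.0657 for MET, -0.0356 for INSR, 0.0929 for GRB7 and 0.81 for PROS1, each of the opposite sign to the gene sum, and -2.15 for FGFR1, -0.69 for FGFR4, -0.68 for FGF1, -2.0 for USP8, 1.5 for YWHAB and -0.94 for KIT, of the same sign. DDR1 gave no value. The mean levels became 238.9 FPKM for AXL, 35.8 for EGFR, 29.4 for MET, 5.98 for ERBB2, 8.47 for ERBB3, 7.70 for FGFR4, 8.71 for FGFR1, 2.76 for DDR1, 4.47 for IGF1R and 2.28 for INSR, which leaves out the other transcripts by construction. The order thereby changed, with ERBB2 below FGFR1, ERBB3 and FGFR4, and DDR1 below IGF1R. List medians became -0.0657 (receptors), -0.12 (other receptor tyrosine kinases), 0.0506 (adaptors), -0.0500 (RAS to ERK) and 0.29 (hepatoma markers). Under upper quartile scaling they were -0.0838 (receptors), 0.10 (adaptors) and -0.00621 (RAS to ERK), with coding transcripts only -0.0871 (other receptor tyrosine kinases), and with no filter 0.28 (hepatoma markers). The cause was not tested.

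Leaving out each library moved the log2 fold change across 0 for EGFR (-0.32 to 0.17), MET (-0.10 to 0.13), IGF1R (-0.66 to 0.32) and DDR1 (-0.32 to 0.0656), and for EPHB4 (-0.56 to 1.07), FGFRL1 (-0.51 to 0.0621), MRAS (-0.0417 to 0.61), YWHAB (-0.0613 to 1.51), CLTA (-0.91 to 0.23), CHMP3 (-0.0645 to 0.47) and GAS6 (-0.0974 to 0.22). It kept the sign but moved the size for VIRMA (-0.80 to -0.26), GRB7 (-1.09 to -0.18), GAB2 (-0.61 to -0.0935), FGF2 (-0.65 to -0.0376), FGF1 (-0.53 to -0.0751), EPGN (-1.14 to -0.19), EREG (-1.26 to -0.56), NRG1 (-0.41 to -0.12) and MERTK (-1.13 to -0.37). List medians ranged from -0.0896 to -0.0117 (receptors), -0.14 to -0.0259 (other receptor tyrosine kinases), -0.35 to -0.00395 (ligands), 0.0160 to 0.14 (co-receptors), 0.0251 to 0.0653 (adaptors), -0.0366 to -0.00569 (RAS to ERK), -0.00361 to 0.0825 (inhibitors), 0.13 to 0.20 (hepatoma markers) and -0.15 to 0.17 (fibroblast, endothelial and leukocyte markers). A lone library in these fits is assumed to vary like the other group.

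With 2 libraries per group and unknown depth, a small difference could not be told from none, and transcript levels below 1 FPKM were not tested. These libraries hold the hairpin in 1 cell line, while the paper also used a hairpin against KIAA1429 in SK-Hep1 cells. The targeted gene itself did not pass the test here. Levels of transcripts that share most of their sequence depend on how fragments were divided among them.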
